A study of Homo sapiens with 16 samples.

Results

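The effect of a hairpin aimed at the linker histone H1.4, over and above the response to doxycycline (Dox), was measured in T47D-MTVL cells as a difference of differences. It is the change with Dox in the H1.4 hairpin line (sh120_Dox minus sh120) minus the change with Dox in a line with a random hairpin (Ctrl_Dox minus Ctrl). Sample titles assign 2 of the 16 Illumina bead arrays of the study to each of these 4 groups, so 8 arrays carry the comparison and the other 8 arrays serve as a look-up. Of 9654 items tested (9172 named genes and 482 unnamed probes), 41 genes passed the test of the difference.

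The sh120_Dox cells expressed the inducible hairpin against H1.4 and had received Dox at 2.5 µg/ml for 6 days, with a passage on day 3 and medium without serum from day 4. The sh120 cells were the same line without Dox. Ctrl_Dox and Ctrl were the line with the random hairpin, with and without the same Dox treatment. All 4 groups carried a luciferase reporter driven by the MMTV promoter, a KRAB repressor joined to the Tet regulator with a red fluorescent protein, and a virally delivered hairpin vector. Each line was a population sorted for red and green fluorescence after 3 days of Dox and then expanded without Dox. Each hairpin is represented by a single line, so hairpin and line cannot be told apart, nor can H1.4 loss and any other effect of the hairpin sequence. The labels do not state that cells without Dox also went through the passage and the serum-free days. Nor do they say that the 2 replicates of a group came from different cultures, and p-values then reflect only how far these arrays spread, which may be technical. In the look-up arrays, sh225_Dox and sh225 were a line with a hairpin against multiple H1 variants, with and without Dox, and WT and K26 were untreated lines that overexpressed HA-tagged H1.4, wild type or K26A.

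Linker histones sit on the nucleosome where DNA enters and leaves it, and help to fold nucleosome arrays. Human cells carry several H1 variants, and H1.4, made from the H1-4 gene, is among the main ones in many cell types. In the inducible system, Dox releases the KRAB repressor from the vector, so that the hairpin is made. Dox itself, an antibiotic that slows mitochondrial translation, the release of the repressor and the hairpin machinery are shared by both lines and cancel in the difference, to the extent that both lines respond alike.

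Between 9477 and 10201 of 24530 probes were detected per array (detection p under 0.01), and replicates correlated across genes at r = 0.991 to 0.993. With 2 arrays a group, a difference carried a median SE of 0.21 on the log2 scale. Of 10 luminal markers, 9 were detected on all 8 arrays, among them ESR1, GATA3 and KRT8, as for the luminal breast cancer line T47D. The basal keratins KRT5 and KRT14, 5 of 6 leukocyte markers, all 4 endothelial markers and 4 of 6 fibroblast markers were detected on none. The summed basal signal (5 markers on the array, with ACTA2 and CDH3 detected throughout) ran from 10.63 to 10.69 in sh120_Dox, 10.21 to 10.33 in sh120, 10.39 to 10.43 in Ctrl_Dox and 9.92 to 10.00 in Ctrl (log2). The summed leukocyte signal, of which CD68 alone was detected, ran from 8.33 to 8.40 in sh120_Dox, 8.08 to 8.13 in sh120, 8.04 to 8.05 in Ctrl_Dox and 8.09 to 8.14 in Ctrl, highest in sh120_Dox. The part of either in the results was not tested.

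The knock-down itself could not be read from these arrays. The H1-4 probe was detected on none of the 8 arrays, with log2 signals of 4.51 and 4.52 in sh120_Dox, 4.52 and 4.46 in sh120, 4.48 and 4.52 in Ctrl_Dox and 4.64 and 4.55 in Ctrl. It was detected on all 4 arrays of the lines that overexpress H1.4. Probes for H1-1, H1-3 and H1-5 were not detected on the 8 arrays either. H1-2 stood at 9.49 and 9.20 in sh120_Dox, against 8.94 and 9.15 in sh120, 9.06 and 9.07 in Ctrl_Dox and 8.37 and 8.67 in Ctrl. Its difference was -0.25 ± 0.21 (log2 ± SE, 95% interval -0.68 to 0.18, adjusted p = 0.660). For H1-10, which encodes the H1x variant, the difference was -0.18 ± 0.20 (-0.60 to 0.24, adjusted p = 0.761). Neither variant passed the test of the difference, and the intervals leave room for changes of either sign. Within the lines, H1-10 fell with Dox by 0.45 in sh120, and H1-2 rose with Dox by 0.55 in Ctrl. Both changes passed, and no other H1 gene passed in either line. Each is 1 of 3 tested H1 genes, against 8.43% of all items that fell in sh120 and 1.45% that rose in Ctrl.

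Of the 41 genes that passed the test (0.425% of the items, limma with Benjamini-Hochberg adjustment at adjusted p under 0.05), 34 were higher (0.352%) and 7 lower (0.0725%) in the sh120 line beyond Ctrl. The difference reached at least 2-fold for 21 of the higher and 3 of the lower genes. At an unadjusted p under 0.05 there were 659 higher items (6.83%) and 621 lower (6.43%). The same model called 1593 items for Dox in the sh120 line, 779 higher (8.07%) and 814 lower (8.43%), and 288 for Dox in the Ctrl line, 140 higher (1.45%) and 148 lower (1.53%). With median scaling in place of quantile normalization the sh120 split was 824 higher and 528 lower. Without Dox the lines differed in 2 of 9654 items, AKR1C2 and RPL37, both lower in sh120. The count of 41 depended on each array: it was 22 without sh120_Dox replicate 1 and 4 without sh120_Dox replicate 2. It was 16 and 7 without sh120 replicates 1 and 2, 9 and 26 without Ctrl_Dox replicates 1 and 2, and 6 and 18 without Ctrl replicates 1 and 2. With only these 8 arrays in the fit, 23 genes were higher and 14 lower, and 24 of the 41 were called again. With the 8 arrays also normalized alone, 28 were higher and 15 lower, with 27 of the 41 among them.

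**Figure D1:**
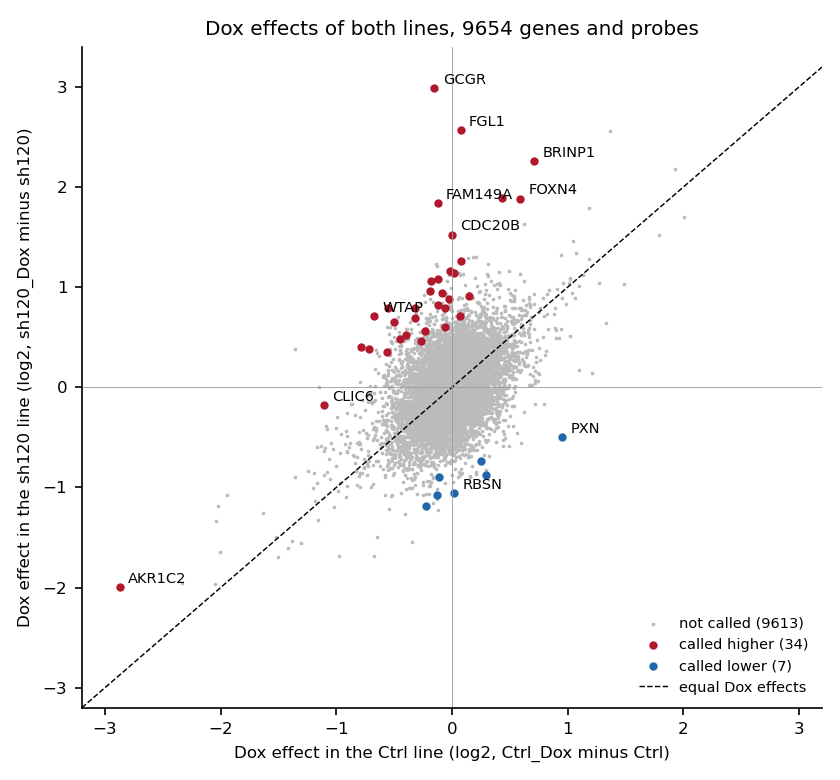
Change with Dox in the sh120 line (vertical axis, log2) against that in the Ctrl line (horizontal axis, log2) for the 9654 items tested. The dashed line marks equal Dox effects. The 34 genes called higher (red) lie above it and the 7 called lower (blue) below it, with GCGR and FGL1 farthest above.

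The 41 differences were taken apart into their terms. For 32 genes only the change in the sh120 line passed the test, for 5 both changes did, and for 4 only the change in the Ctrl line did. Between the Dox-treated arms, sh120_Dox against Ctrl_Dox, 40 of the 41 passed, all but AKR1C2, where 533 items were higher (5.52%) and 464 lower (4.81%) in all, and 354 and 441 with median scaling. These comparisons share arrays with the difference, so they describe where it comes from and add no separate evidence. Both sh120_Dox arrays lay above the other 6 arrays for 30 of the 34 higher genes, against 17.3% of all items, and below them for 6 of the 7 lower genes, against 16.1%. Of the 41 genes, 30 were detected on all 8 arrays.

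**Figure D2:**
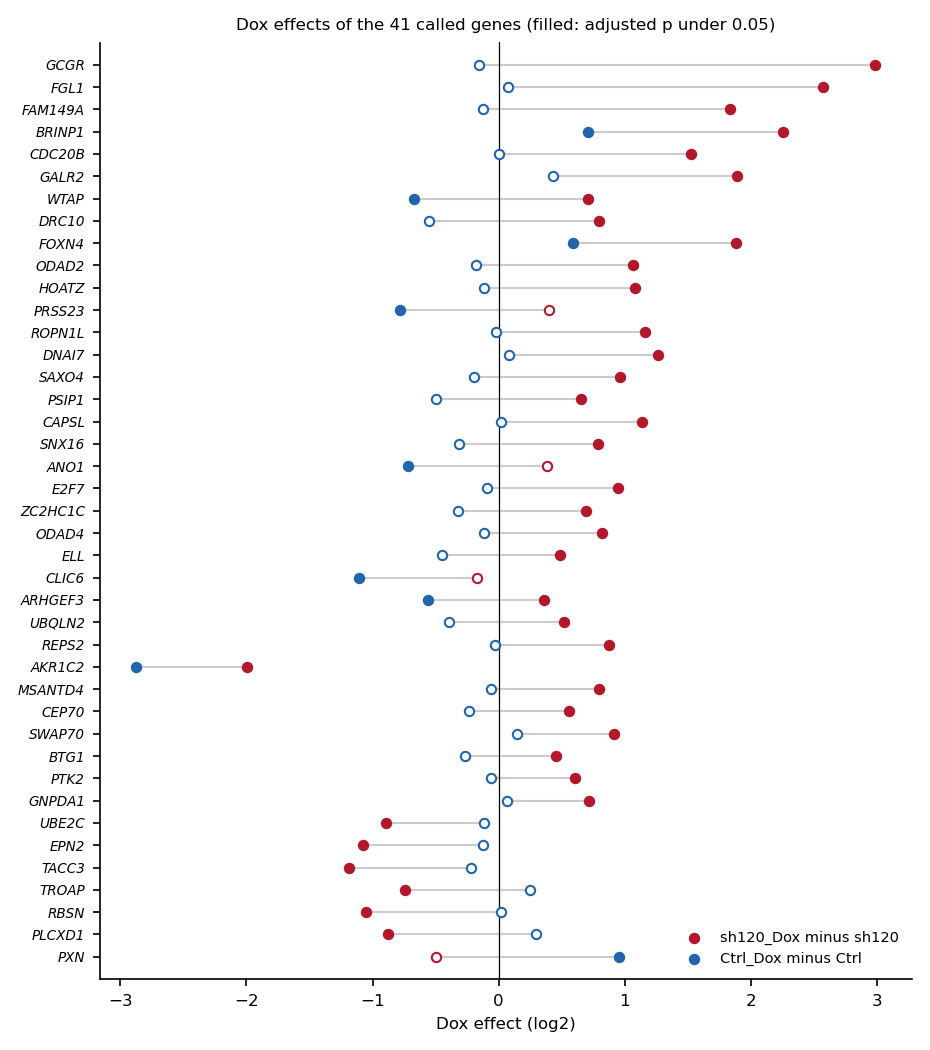
Change with Dox in the sh120 line (red) and in the Ctrl line (blue) for each of the 41 called genes, log2, ordered by their difference. Filled points passed the test, open points did not. In 32 rows the red point alone is filled, in 5 both are, and CLIC6, PRSS23, ANO1 and PXN have a filled blue point with an open red one.

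The 3 largest fitted differences were those of genes not detected in the other 3 groups. GCGR, the receptor for glucagon on liver cells, had log2 signals of 7.78 and 7.46 in sh120_Dox, against 4.74 and 4.52 in sh120, 4.63 and 4.49 in Ctrl_Dox and 4.78 and 4.65 in Ctrl. Only the sh120_Dox pair was detected, and it stood clear of every other array. Set against the lowest detectable signal, GCGR was at least 3.17-fold higher in sh120_Dox than in sh120 and at least 3.00-fold higher than in Ctrl_Dox, and its difference had an adjusted p of 4.23e-06. GCGR was detected on none of the 8 arrays of the sh225, WT and K26 groups. It therefore met the detection filter only through the sh120_Dox pair, the group in which it is high. The adjusted p does not allow for this selection.

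FGL1, a fibrinogen-like protein that the liver secretes, stood at 7.13 and 7.27 in sh120_Dox, against 4.59 and 4.66 in sh120, 4.67 and 4.60 in Ctrl_Dox and 4.58 and 4.54 in Ctrl. It was at least 2.37-fold higher than in sh120 and at least 2.24-fold higher than in Ctrl_Dox (adjusted p of the difference 5.55e-05). FAM149A had 6.58 and 6.61 in sh120_Dox, against 4.81 and 4.70 in sh120, 4.65 and 4.75 in Ctrl_Dox and 4.79 and 4.85 in Ctrl. It was at least 1.56-fold and 1.48-fold higher than in sh120 and Ctrl_Dox (adjusted p of the difference 0.00101). Both genes were detected in sh120_Dox alone among all 8 groups. Like GCGR, they met the detection filter only through that pair, and their adjusted p-values do not allow for this. A second probe of FGL1 and one of FAM149A were detected on none of the 8 arrays, so each result rests on 1 probe. GCGR, FGL1 and FAM149A kept a positive difference under all 24 alternatives computed for them, the omission of each array included. The fitted log2 size ran from 1.28 to 3.30 for GCGR, 0.91 to 2.57 for FGL1 and 0.65 to 2.02 for FAM149A. The detection filter was not applied again when an array was left out. Without either sh120_Dox array these genes would not meet it, so the omissions do not test their selection.

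GALR2, a receptor for the neuropeptide galanin, was at 7.35 and 7.07 in sh120_Dox, against 5.05 and 5.59 in sh120, 5.55 and 5.61 in Ctrl_Dox and 5.13 and 5.17 in Ctrl. It was detected in sh120_Dox only among these groups, and also on both K26 arrays. It was at least 2.39-fold higher than in sh120 (adjusted p of the difference 0.0345), but the call was kept in only 1 of 8 omissions of an array. BRINP1, a protein of nerve cells that retinoic acid and bone morphogenetic proteins induce, had 7.53 and 7.61 in sh120_Dox, against 5.24 and 5.38 in sh120, 6.17 and 6.21 in Ctrl_Dox and 5.39 and 5.57 in Ctrl. It was undetected in sh120 and Ctrl, so only bounds can be given: with Dox it was at least 3.06-fold higher in the sh120 line and at least 1.22-fold higher in the Ctrl line (adjusted p of the difference 0.00541). Without sh120_Dox replicate 2 the adjusted p was 0.0512. BRINP1 also rose with Dox in the sh225 line, by at least 1.63-fold (adjusted p = 1.59e-06).

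**Figure D3:**
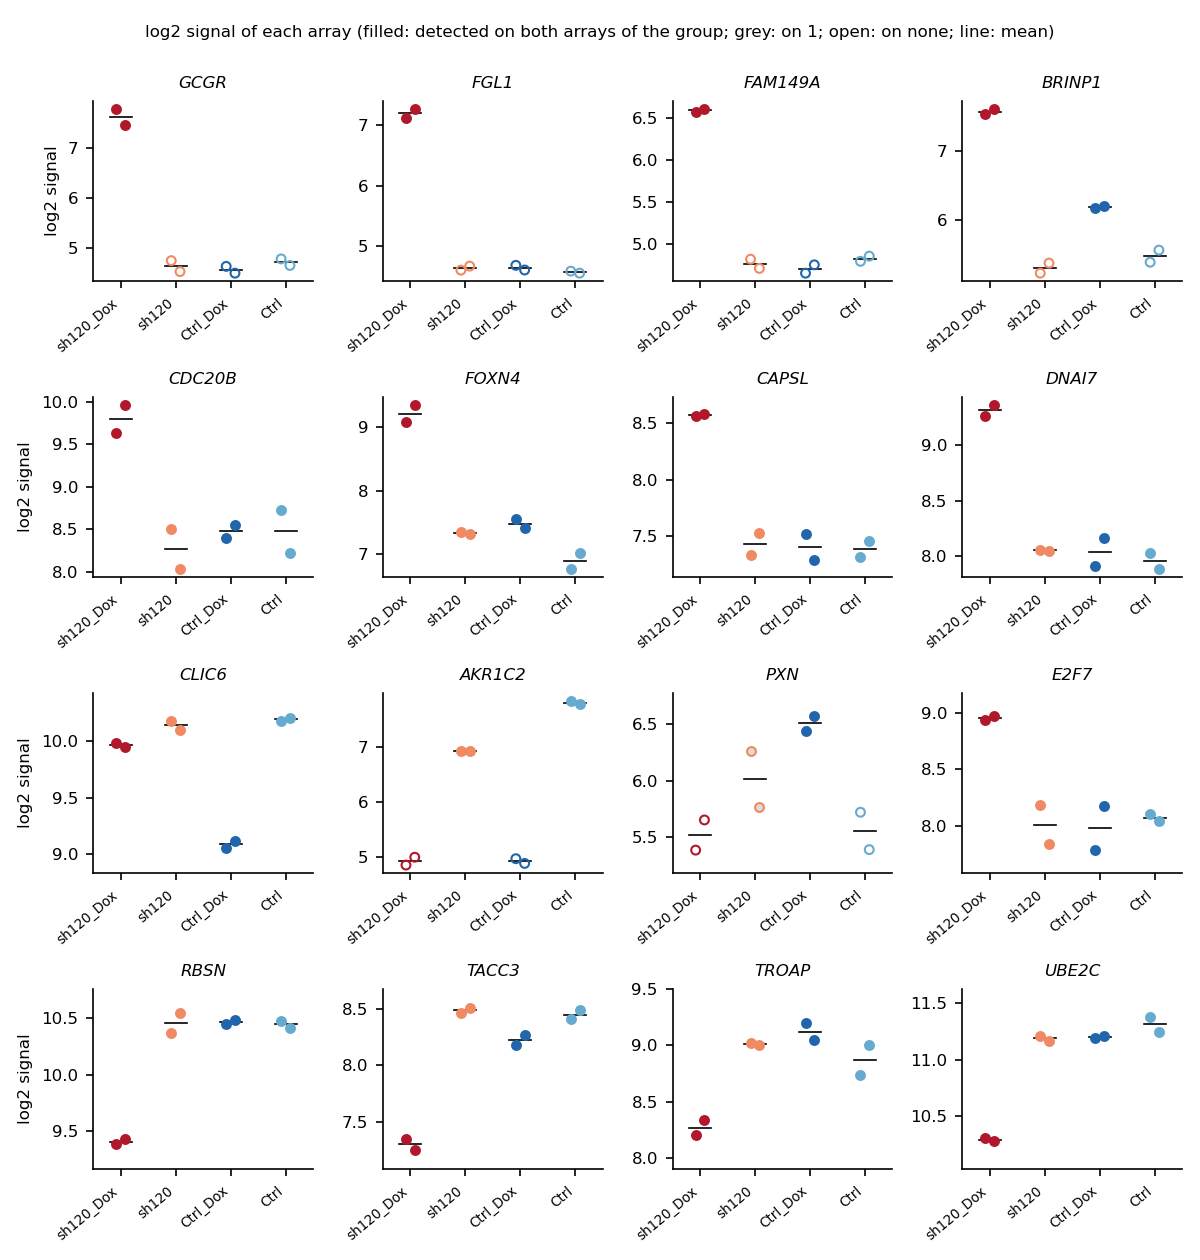
Signal of each array (log2) for 16 of the called genes in sh120_Dox, sh120, Ctrl_Dox and Ctrl, with 2 points per group and a line at their mean. Open points mark groups without detection and grey ones groups with 1 array detected. GCGR, FGL1 and FAM149A appear in sh120_Dox alone, CLIC6 is low in Ctrl_Dox alone, and RBSN, TACC3, TROAP and UBE2C are low in sh120_Dox.

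A group of the higher genes belongs to motile cilia. Multiciliated cells of the airway, the brain ventricles and the oviduct carry bundles of beating cilia, whose core of microtubules holds dynein arms, docking complexes and radial spokes. Their program is started by GEMC1 and MCIDAS and carried on by FOXJ1, MYB and RFX factors, and the locus of CCNO, MCIDAS and CDC20B is one of its known switches. Of 35 genes listed for this program, 29 were on the array and 19 were tested. Of these 19 genes 17 had a positive difference, against 48.5% of all items, and their median was 0.68 (log2) against -0.01. The test called 5 higher and 0 lower, against 0.352% and 0.0725% of all items, and at an unadjusted p under 0.05 there were 13 higher and 0 lower, against 6.83% and 6.43%. With Dox, 12 of the 19 rose in the sh120 line and 0 fell, against 8.07% and 8.43% of all items, while 1 rose in the Ctrl line and 0 fell, against 1.45% and 1.53%. The list and its members were known from earlier results of these data, so the counts are a description. Over the 25 alternatives the list's median stayed between 0.44 and 0.77, but the number called ran from 0 to 9. Without sh120_Dox replicate 2, the adjusted p of FOXN4 was 0.0910.

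Among the regulators and early genes of the program, CDC20B stood at 9.63 and 9.97 in sh120_Dox, against 8.51 and 8.03 in sh120, 8.40 and 8.56 in Ctrl_Dox and 8.73 and 8.23 in Ctrl. The difference was 1.53 ± 0.25 (adjusted p = 0.0101), and both sh120_Dox arrays lay above the other 6, as for 17.3% of all items. The call of CDC20B was lost in some omissions of an array. FOXN4, a forkhead factor needed for multiciliated cells in frog skin, was at 9.08 and 9.35 in sh120_Dox, against 7.34 and 7.32 in sh120, 7.54 and 7.40 in Ctrl_Dox and 6.76 and 7.01 in Ctrl. It rose by 1.89 ± 0.15 in the sh120 line and by 0.59 ± 0.15 in the Ctrl line, a difference of 1.29 ± 0.22 (adjusted p = 0.0131). FOXJ1 itself did not pass (0.62 ± 0.35, adjusted p = 0.469), nor did MYB (0.68 ± 0.21, adjusted p = 0.158) or CCNO (0.65 ± 0.24, adjusted p = 0.231). For FOXJ1 the sh120_Dox values of 7.35 and 6.86 overlapped with the Ctrl values of 7.02 and 6.70.

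Other called genes of the list gave differences of like size. ROPN1L, a protein of radial spokes and sperm tails, had 9.69 and 9.48 in sh120_Dox, against 8.26 and 8.57 in sh120, 8.32 and 8.19 in Ctrl_Dox and 8.20 and 8.35 in Ctrl (1.18 ± 0.26, adjusted p = 0.0473). HOATZ, needed for motile cilia in mice, had 9.15 and 9.37 in sh120_Dox, against 8.10 and 8.26 in sh120, 7.91 and 7.58 in Ctrl_Dox and 7.97 and 7.75 in Ctrl (1.20 ± 0.22, adjusted p = 0.0193). CAPSL, a calcium-binding protein related to calcyphosine, had 8.56 and 8.58 in sh120_Dox, against 7.33 and 7.53 in sh120, 7.52 and 7.29 in Ctrl_Dox and 7.32 and 7.46 in Ctrl (1.12 ± 0.20, adjusted p = 0.0169). In all 3 genes both sh120_Dox arrays lay above the other 6, as for 17.3% of all items. The call of ROPN1L was lost in every omission of an array, and those of HOATZ and CAPSL in most. The probe rows of CAPSL disagree between the deposited tables, and with the authors' series matrix as given its difference was 0.02.

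Outside the list, 5 more called genes code for parts of motile cilia, and they were recognised after the calls were known. Each of these 5 calls was lost in most omissions of an array. DNAI7, an axonemal dynein subunit, stood at 9.27 and 9.37 in sh120_Dox, against 8.06 and 8.05 in sh120, 7.91 and 8.16 in Ctrl_Dox and 8.03 and 7.88 in Ctrl (1.18 ± 0.20, adjusted p = 0.0131). ODAD4, of the complex that docks outer dynein arms, had 9.05 and 9.10 in sh120_Dox, against 8.31 and 8.19 in sh120, 7.83 and 8.05 in Ctrl_Dox and 8.04 and 8.08 in Ctrl (0.94 ± 0.19, adjusted p = 0.0357). Its partner ODAD2 was detected in sh120_Dox only among the 4 groups, at 6.29 and 6.55, with undetected values of 5.26 to 5.62 elsewhere, and was at least 1.38-fold higher than in sh120 (adjusted p of the difference 0.0357). DRC10, of the dynein regulatory complex, had 6.86 and 6.74 in sh120_Dox, against 6.08 and 5.92 in sh120, 5.34 and 5.53 in Ctrl_Dox and 6.08 and 5.89 in Ctrl, and was at least 1.69-fold higher in sh120_Dox than in Ctrl_Dox (adjusted p of the difference 0.0192). SAXO4, a protein of axonemal microtubules, had 7.42 and 7.30 in sh120_Dox, against 6.58 and 6.21 in sh120, 6.46 and 6.21 in Ctrl_Dox and 6.56 and 6.49 in Ctrl (1.16 ± 0.24, adjusted p = 0.0437). For DRC10 the difference includes a lower, undetected signal in Ctrl_Dox, while for the others the change in the Ctrl line lay between -0.19 and 0.08.

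Several listed cilia genes came near the threshold. RSPH4A, a radial spoke head protein, had 7.10 and 7.64 in sh120_Dox, against 6.18 and 6.10 in sh120, 6.01 and 6.06 in Ctrl_Dox and 6.30 and 6.04 in Ctrl (1.36 ± 0.31, adjusted p = 0.0571). DNAAF1, which helps to assemble dynein arms, gave 0.76 ± 0.20 (adjusted p = 0.0992) and the tektin TEKT1 1.09 ± 0.31 (adjusted p = 0.127). The dynein chain DNAI1 gave 0.80 ± 0.26 (adjusted p = 0.190). All 4 genes had both sh120_Dox arrays above the other 6, as for 17.3% of all items. They were named for differences near the threshold, so this partly follows from the choice.

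**Figure D4:**
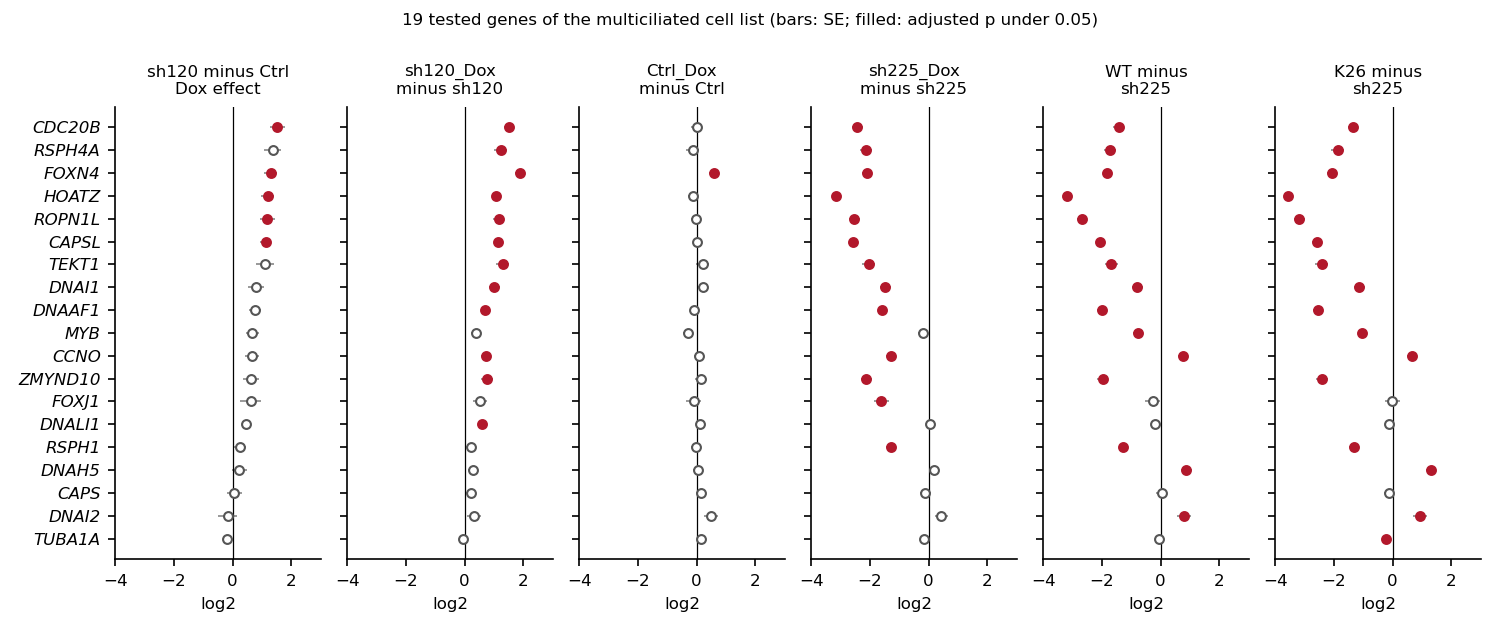
Log2 differences (points) with their SE (bars) for the 19 tested genes of the multiciliated cell list, in the difference of Dox effects, its sh120 and Ctrl terms, and 3 comparisons on the look-up arrays. Filled points passed the test. The points lie mostly right of 0 in the panels of the difference and of sh120, near 0 in the Ctrl panel except for FOXN4, and mostly left of 0 for sh225_Dox against sh225 and for WT and K26 against sh225.

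On the look-up arrays, whose signals are not terms of the difference, most changes of these genes were falls. These arrays were normalized, filtered and fitted together with those of the difference. They also enter the estimate of spread behind its calls, so the look-up is not fully independent. With Dox in the sh225 line, 13 of the 19 listed genes fell and 0 rose (median -1.59), against 18.5% of all items that fell and 17.1% that rose. In WT against untreated sh225 12 were lower and 3 higher (median -1.27), against 17.7% and 18.2% of all items. In K26 against untreated sh225 13 were lower and 3 higher (median -1.33), against 28.8% and 26.2% of all items. All 10 cilia genes called in the difference, 5 from the list and 5 outside it, were lower in each of the 3 comparisons. With Dox in sh225, HOATZ fell by 3.14 on the log2 scale. WT and K26 are separate lines, and untreated sh225 enters all 3 comparisons, so the 3 counts are not separate evidence. The untreated sh225 arrays were themselves high for such genes: HOATZ stood at 8.87 and 9.25 there, against 9.15 and 9.37 in sh120_Dox and 8.10 and 8.26 in sh120. Levels are here compared between the look-up arrays and the 8 arrays of the difference. Median raw intensities were 100.1 and 97.65 on the untreated sh225 arrays and 78 to 89.8 on the 8 arrays. The part of this in the gap was not tested.

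To show what the promoters of these genes share, RefSeq windows (GRCh38.p14, 250 bases before to 50 after each start) were searched for the half-site GTTGCC, the core of the X-box that RFX factors recognise, on both strands. It was found in 6 of the 15 listed genes that have a window, and in 7 of their 17 windows (41.2%), against 12.2% of all 35116 windows. The longer GTTGCCA, which contains it, occurred in 3 of the 17 windows (17.6%) and in 4.08% of all, and other spellings were tried before these. Of the 34 called higher genes 28 have a window, and in these the shares were no higher than over all windows. They were 5 of 41 (12.2%) for GTTGCC and 1 of 41 (2.44%) for GTTGCCA. The stretches below come from the listed genes with a match before the start and a positive difference at an unadjusted p under 0.05, and from DNAI7. Capitals mark the match, as spelled in CCNO and as its reverse complement GGCAAC in the others.
RSPH4A, plus strand, chr6:116616399-116616464: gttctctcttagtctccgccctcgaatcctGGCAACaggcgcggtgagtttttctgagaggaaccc
CAPSL, minus strand, chr5:35938780-35938829: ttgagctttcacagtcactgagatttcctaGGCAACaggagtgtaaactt
TEKT1, minus strand, chr17:6831741-6831806: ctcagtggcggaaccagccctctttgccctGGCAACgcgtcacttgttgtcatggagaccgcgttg
DNAI1, plus strand, chr9:34458555-34458606: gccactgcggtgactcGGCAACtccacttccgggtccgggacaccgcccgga
CCNO, minus strand, chr5:55233810-55233858: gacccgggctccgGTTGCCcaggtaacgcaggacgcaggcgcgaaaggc
DNAI7, minus strand, chr12:25195215-25195280: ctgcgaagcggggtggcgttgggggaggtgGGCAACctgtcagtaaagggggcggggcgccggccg
The match lies 20 bases before the start in CAPSL, 47 in TEKT1, 50 in RSPH4A and 90 in DNAI7, and 234 and 237 in DNAI1 and CCNO. A match describes letters in the window and does not show binding.

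Of the 7 lower genes UBE2C is in the list of G2/M genes, and TACC3 and TROAP were recognised as mitotic after the calls were known. UBE2C, the enzyme that hands ubiquitin to the anaphase-promoting complex, stood at 10.30 and 10.28 in sh120_Dox, against 11.21 and 11.17 in sh120, 11.19 and 11.21 in Ctrl_Dox and 11.38 and 11.25 in Ctrl. Its difference was -0.78 ± 0.15 (adjusted p = 0.0192), and its other detected probes gave -0.45 and -0.54. TACC3, which stabilises spindle microtubules, had 7.35 and 7.25 in sh120_Dox, against 8.46 and 8.51 in sh120, 8.18 and 8.27 in Ctrl_Dox and 8.41 and 8.49 in Ctrl (-0.96 ± 0.20, adjusted p = 0.0357). TROAP, a protein of the mitotic spindle, had 8.21 and 8.34 in sh120_Dox, against 9.02 and 9.0 in sh120, 9.20 and 9.05 in Ctrl_Dox and 8.74 and 9.0 in Ctrl (-0.99 ± 0.18, adjusted p = 0.0169). In these 3 genes both sh120_Dox arrays were below the other 6 arrays of the comparison, as for 16.1% of all items. The calls of UBE2C and TACC3 were lost in each of 8 omissions of an array.

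Across the listed cell cycle genes most differences were negative and small. Of 43 tested genes of G2/M and mitosis 36 had a negative difference, against 51.5% of all items, with a median of -0.34. The test called 1 lower, UBE2C, and 0 higher, against 0.0725% and 0.352% of all items. At an unadjusted p under 0.05 there were 16 lower and 1 higher, against 6.43% and 6.83%. With Dox 23 of the 43 fell in the sh120 line (median -0.41) and 0 in the Ctrl line (median -0.11), against 8.43% and 1.53%. In either line 0 rose, against 8.07% of all items in sh120 and 1.45% in Ctrl. CDCA8, of the chromosomal passenger complex, gave -0.72 ± 0.17 (adjusted p = 0.0627), the kinase AURKB -0.72 ± 0.22 (adjusted p = 0.155), and FOXM1, the factor that drives G2/M genes, -0.79 ± 0.25 (adjusted p = 0.166). NEK2, a centrosome kinase, went the other way at 0.49 ± 0.20 (adjusted p = 0.284). The sh225 line, on its own arrays, had 41 of the 43 lower with Dox and 0 higher, against 18.5% and 17.1% of all items.

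Of 40 tested genes of G1/S and DNA replication 35 had a negative difference, against 51.5% of all items, again with a median of -0.34. None passed the test in either direction. At an unadjusted p under 0.05 there were 14 lower and 0 higher, against 6.43% and 6.83% of all items. Thymidylate synthase TYMS stood at 9.10 and 9.07 in sh120_Dox, against 9.70 and 9.65 in sh120, 10.03 and 9.95 in Ctrl_Dox and 9.93 and 9.84 in Ctrl (-0.69 ± 0.16, adjusted p = 0.0628). Thymidine kinase TK1 gave -0.61 ± 0.15 (adjusted p = 0.0693), without overlap between sh120_Dox and the other arrays. Over the alternatives the median of the G2/M list ran from -0.36 to -0.22 and that of the G1/S list from -0.34 to -0.21. RNA of whole cultures was measured, so fewer cells in a phase and less RNA per cell cannot be told apart.

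Many promoters of G2/M genes hold a CHR element, TTTGAA, through which the DREAM and MuvB complexes act. On both strands this motif was found in 27 of the 44 windows of the tested G2/M genes (61.4%), in 25 of 35 genes with a window, against 15.2% of all windows. In the called lower genes it was found in 1 of 7 windows (14.3%), close to that share. These windows belong to only 5 of the 7 genes. In the multiciliated cell list it occurred in 3 of 17 windows (17.6%), and GTTGCC occurred in 5 of the 44 G2/M windows (11.4%). The 4 stretches shown are those of the G2/M genes with the lowest differences at an unadjusted p under 0.05 and a match before the start, with the match in capitals (TTCAAA is the reverse complement).
GTSE1, plus strand, chr22:46296814-46296869: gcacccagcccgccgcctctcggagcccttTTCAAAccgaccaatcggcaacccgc
CDCA8, plus strand, chr1:37692463-37692515: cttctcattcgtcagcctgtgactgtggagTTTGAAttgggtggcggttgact
CDKN3, plus strand, chr14:54396807-54396872: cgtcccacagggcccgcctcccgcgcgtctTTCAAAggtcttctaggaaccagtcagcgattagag
PLK1, plus strand, chr16:23678830-23678888: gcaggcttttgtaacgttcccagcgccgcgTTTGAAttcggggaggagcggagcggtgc
Their differences were -0.75, -0.72, -0.68 and -0.65, and none passed the test (adjusted p = 0.197, 0.0627, 0.225 and 0.244).

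Known to restrain growth, E2F7 and BTG1 were among the higher genes. E2F7, an atypical E2F that represses cell cycle genes, stood at 8.93 and 8.98 in sh120_Dox, against 8.18 and 7.84 in sh120, 7.78 and 8.17 in Ctrl_Dox and 8.10 and 8.04 in Ctrl (1.04 ± 0.21, adjusted p = 0.0357). BTG1, an antiproliferative protein that binds the CCR4-NOT complex, had 11.84 and 11.77 in sh120_Dox, against 11.44 and 11.25 in sh120, 11.18 and 11.25 in Ctrl_Dox and 11.54 and 11.44 in Ctrl (0.73 ± 0.14, adjusted p = 0.0192). E2F7 fell with Dox in the sh225 line, by 1.70 (adjusted p = 4.85e-08), where BTG1 rose by 0.55 (adjusted p = 0.000172). Of 18 tested p53 targets 0 passed in the difference in either direction in limma. At an unadjusted p under 0.05 there were 1 higher and 4 lower, against 6.83% and 6.43% of all items.

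Called genes of endocytosis and adhesion, recognised after the calls were known, stood on both sides. RBSN, the Rab5 effector rabenosyn of early endosomes, was at 9.38 and 9.43 in sh120_Dox, against 10.37 and 10.54 in sh120, 10.45 and 10.48 in Ctrl_Dox and 10.48 and 10.42 in Ctrl. The 6 arrays of the other groups lay between 10.37 and 10.54, and the difference of -1.07 ± 0.15 (adjusted p = 0.00186) passed under all 25 alternatives. In the sh225 line RBSN rose with Dox, by 0.46 (adjusted p = 0.00224). EPN2, an epsin adaptor of clathrin coats, had 7.39 and 7.41 in sh120_Dox, against 8.33 and 8.61 in sh120, 8.06 and 7.95 in Ctrl_Dox and 8.13 and 8.13 in Ctrl (-0.95 ± 0.19, adjusted p = 0.0357). PLCXD1, with a phospholipase C domain, was not placed in either group. It had 7.89 and 8.15 in sh120_Dox, against 8.89 and 8.91 in sh120, 8.91 and 8.69 in Ctrl_Dox and 8.35 and 8.66 in Ctrl (-1.17 ± 0.22, adjusted p = 0.0192). All 3 genes were lower on both sh120_Dox arrays than on the other 6 arrays of the comparison, as for 16.1% of all items.

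On the higher side, the endosomal sorting nexin SNX16 had 8.29 and 8.35 in sh120_Dox, against 7.57 and 7.48 in sh120, 7.40 and 7.68 in Ctrl_Dox and 8.07 and 7.65 in Ctrl (1.11 ± 0.23, adjusted p = 0.0414). SWAP70, which activates Rac at the actin skeleton, gave 0.77 ± 0.16 (adjusted p = 0.0437). The focal adhesion kinase gene PTK2 gave 0.66 ± 0.14 (adjusted p = 0.0462), and REPS2, an EH-domain protein of receptor uptake, 0.91 ± 0.18 (adjusted p = 0.0357). The probe rows of PTK2 and REPS2 disagree between the deposited tables. With the series matrix as given, the difference of REPS2 was -0.04 and that of PTK2 0.01 (adjusted p = 0.968), and neither passed. SWAP70, PTK2 and REPS2 lost their calls in each of 8 omissions of an array.

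A smaller group owed its difference mainly to the Ctrl line. CLIC6, a chloride channel protein, stood at 9.98 and 9.95 in sh120_Dox, against 10.18 and 10.10 in sh120, 9.06 and 9.12 in Ctrl_Dox and 10.18 and 10.20 in Ctrl. It fell by 1.11 ± 0.11 with Dox in the Ctrl line (adjusted p = 1.91e-06) and did not pass in the sh120 line (-0.17 ± 0.11, adjusted p = 0.284), which gives a difference of 0.93 ± 0.15 (adjusted p = 0.0101). Only the Ctrl_Dox arrays were low. PRSS23, a secreted serine protease, had 6.57 and 6.87 in sh120_Dox, against 6.28 and 6.36 in sh120, 5.55 and 5.67 in Ctrl_Dox and 6.53 and 6.25 in Ctrl (1.19 ± 0.24, adjusted p = 0.0345). ANO1, a calcium-activated chloride channel, had 6.29 and 6.36 in sh120_Dox, against 5.89 and 5.99 in sh120, 5.41 and 5.49 in Ctrl_Dox and 6.02 and 6.32 in Ctrl (1.10 ± 0.24, adjusted p = 0.0482). Both were undetected in Ctrl_Dox, so the fitted sizes are not exact, and they were at least 1.61-fold (PRSS23) and 1.22-fold (ANO1) higher in sh120_Dox than in Ctrl_Dox. The call of ANO1 was lost in each of 8 omissions of an array.

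ARHGEF3, an activator of RhoA, had 8.29 and 8.39 in sh120_Dox, against 7.96 and 8.00 in sh120, 7.45 and 7.55 in Ctrl_Dox and 8.10 and 8.03 in Ctrl. It rose by 0.36 in the sh120 line and fell by 0.56 in the Ctrl line (difference 0.92 ± 0.17, adjusted p = 0.0192). WTAP, a subunit of the complex that writes N6-methyladenosine, had 9.16 and 9.43 in sh120_Dox, against 8.70 and 8.48 in sh120, 8.38 and 8.70 in Ctrl_Dox and 9.48 and 8.94 in Ctrl. The Ctrl arrays overlapped with those of sh120_Dox, and the untreated lines differed by -0.62 without passing the test (adjusted p = 0.278). The difference of 1.38 ± 0.24 (adjusted p = 0.0131) combines a rise of 0.71 in the sh120 line with a fall of 0.67 in the Ctrl line.

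PXN, which encodes the adhesion protein paxillin, was the lowest of the 7. Its signals were 5.39 and 5.65 in sh120_Dox, 6.26 and 5.77 in sh120, 6.44 and 6.58 in Ctrl_Dox and 5.72 and 5.39 in Ctrl, and the probe was detected on 0, 1, 2 and 0 arrays of these groups. Its difference of -1.45 ± 0.31 (adjusted p = 0.0437) rests on signals near the background and on a rise with Dox in the Ctrl line (at least 1.52-fold), and the call was lost in each of 8 omissions of an array.

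AKR1C2, an enzyme that reduces steroids, shows a limit of the difference. It had 4.86 and 5.00 in sh120_Dox, against 6.93 and 6.93 in sh120, 4.98 and 4.89 in Ctrl_Dox and 7.84 and 7.78 in Ctrl, and was undetected in both Dox-treated groups. The fall with Dox reached the background in both lines, at least 1.88-fold in sh120 and at least 3.42-fold in Ctrl. The fitted difference of 0.87 ± 0.19 (adjusted p = 0.0494) therefore mirrors the gap of -0.88 ± 0.14 between the untreated lines (sh120 minus Ctrl), since both Dox-treated levels lay below detection. The call of AKR1C2 was lost in every omission of an array.

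The remaining 7 called genes were higher by 0.65 to 1.15. PSIP1, the chromatin protein LEDGF, which reads methylated H3K36, had 7.16 and 7.35 in sh120_Dox, against 6.69 and 6.51 in sh120, 6.36 and 6.81 in Ctrl_Dox and 7.11 and 7.05 in Ctrl (1.15 ± 0.23, adjusted p = 0.0357). ELL, an elongation factor of RNA polymerase II, had 7.85 and 8.02 in sh120_Dox, against 7.40 and 7.50 in sh120, 7.06 and 7.20 in Ctrl_Dox and 7.49 and 7.66 in Ctrl (0.93 ± 0.20, adjusted p = 0.0473). UBQLN2, a shuttle to the proteasome, gave 0.92 ± 0.16 (adjusted p = 0.0158). In these 3 genes a rise in sh120 met a fall in Ctrl that did not pass the test by itself. ZC2HC1C gave 1.02 ± 0.22 (adjusted p = 0.0437) and MSANTD4 0.86 ± 0.18 (adjusted p = 0.0466). The centrosomal protein CEP70 gave 0.79 ± 0.17 (adjusted p = 0.0483) and the hexosamine enzyme GNPDA1 0.65 ± 0.14 (adjusted p = 0.0437). MSANTD4, CEP70, GNPDA1 and ELL lost their calls in each of 8 omissions of an array.

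Among the large Dox responses of the sh120 line were some that the Ctrl line had too, with no difference that passed. Of 12 tested acute phase and epithelial defence genes 9 fell with Dox in the sh120 line, against 8.43% of all items. In the Ctrl line 9 fell, against 1.53%. In the difference 0 passed in either direction in limma (median 0.06). At an unadjusted p under 0.05 there were 2 higher and 1 lower, against 6.83% and 6.43% of all items. The serum amyloid gene SAA1 stood at 7.09 and 7.07 in sh120_Dox, against 9.09 and 9.0 in sh120, 7.08 and 7.06 in Ctrl_Dox and 9.08 and 9.16 in Ctrl (difference 0.09 ± 0.17, 95% interval -0.28 to 0.45). The checkpoint ligand VTCN1 rose with Dox in both lines, by 2.19 in sh120 and by 1.93 in Ctrl (difference 0.26 ± 0.23, -0.23 to 0.75). The pregnancy-specific glycoprotein PSG9, detected only with Dox, had 6.89 and 6.67 in sh120_Dox, against 5.00 and 5.16 in sh120, 7.08 and 6.70 in Ctrl_Dox and 4.94 and 4.83 in Ctrl. The groups with Dox overlapped for SAA1 and PSG9. The acute phase gene ORM1 came near the threshold: it fell by 1.08 in sh120 and by 1.95 in Ctrl (difference 0.87 ± 0.21, adjusted p = 0.0687).

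Of 47 tested interferon-stimulated genes 43 rose with Dox in the sh225 line, against 17.1% of all items. Between sh120 and Ctrl they had 24 positive and 23 negative differences (median 0.02), and 0 passed. At an unadjusted p under 0.05, 4 of the 47 were higher and 3 lower, against 6.83% and 6.43% of all items. IFI27 had a difference of 0.84 ± 0.24 (adjusted p = 0.129) with no detection in either Dox-treated group. Core histone genes (27 tested) were negative in 22 cases, against 51.5% of all items, with a median of -0.13 and 0 calls. Of the 27 genes 1 was higher and 5 lower at an unadjusted p under 0.05, against 6.83% and 6.43% of all items. Heat shock genes (16 tested) were positive in 13 cases, against 48.5% of all items, with a median of 0.23 and 0 calls. At that unadjusted p 4 were higher and 0 lower, against the same 6.83% and 6.43%. The chaperone HSPH1 was among the 4 (0.70 ± 0.20, adjusted p = 0.128). The smooth muscle myosin MYH11 stood just outside the threshold, at 8.31 and 8.41 in sh120_Dox, against 5.72 and 5.86 in sh120, 6.67 and 6.69 in Ctrl_Dox and 5.21 and 5.41 in Ctrl (1.20 ± 0.27, adjusted p = 0.0545). It was undetected in Ctrl and detected on 1 sh120 array, so this size is not exact. Of 18 tested genes of contractile muscle, MYH11 among them, 7 had a positive and 11 a negative difference. Their median was -0.04, with 0 calls. At the same unadjusted p 2 were higher and 1 lower, against 6.83% and 6.43% of all items.

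**Figure D5:**
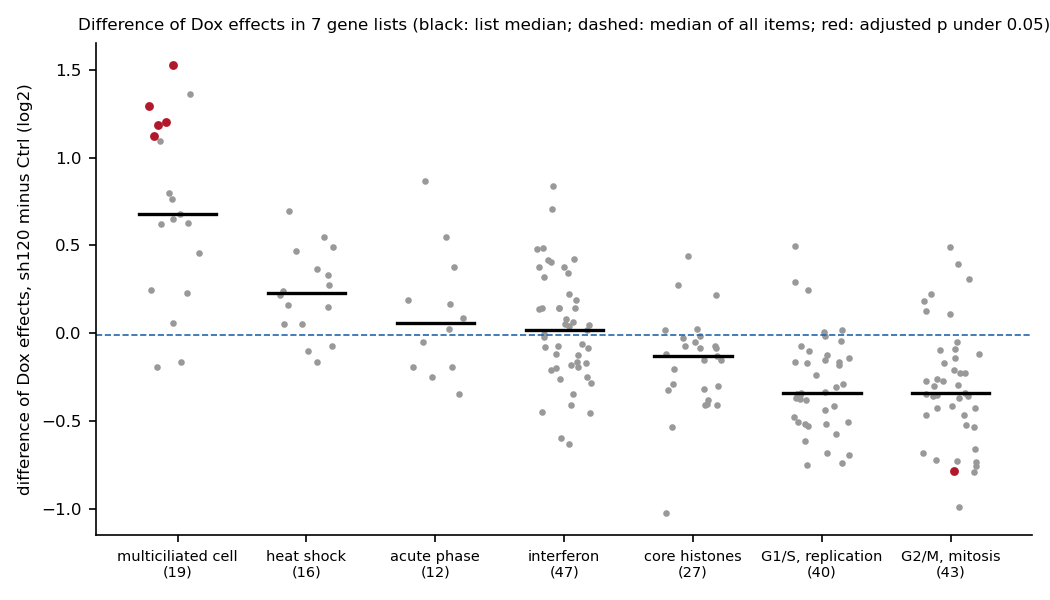
Difference of Dox effects, sh120 minus Ctrl (log2), for each tested gene of 7 lists, with the list's median as a black bar and the median of all 9654 items as a dashed line. Red points passed the test. The multiciliated cell list sits highest, the 2 cell cycle lists lowest, and the acute phase and interferon lists lie around the dashed line.

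The 41 genes as a set were also read on the look-up arrays. Of the 34 higher genes, 8 rose and 14 fell with Dox in the sh225 line, and of the 7 lower genes 1 rose and 4 fell. In WT against untreated sh225, 9 of the 34 were higher and 14 lower, and 0 and 2 of the 7. In K26 against untreated sh225, 11 of the 34 were higher and 15 lower, and 0 and 5 of the 7. The percentages of all items given for these comparisons with the cilia genes apply here too. GNPDA1, MSANTD4, SWAP70, BTG1, BRINP1, PTK2, CLIC6 and PRSS23 were the 8 higher genes that also rose with Dox in sh225. The 4 lower genes that also fell in sh225 were UBE2C, TACC3, TROAP and PLCXD1.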

How the data were processed

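RNA of T47D-MTVL lines was read on 16 arrays (8 groups, 2 arrays each) of Illumina's bead type. Per the submitters' processing notes GenomeStudio 1.6.0 was used. The deposited scanner table holds a not normalized intensity and a detection p-value per probe and array. A table of the authors' processed values of the same arrays, without a stated scale, behaved as a linear intensity and was used as an alternative after taking log2.

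The deposited intensities were background-corrected with neqc (offset 16), which here infers the negative control signal from the detection p-values, quantile-normalized and put on the log2 scale. Of 24530 probes, 11258 with a detection p under 0.01 on at least 2 of the 16 arrays were kept. The probe of highest mean stood for each gene, which left 9654 items. Of the probes, 23266 carried a gene symbol in the platform annotation, and 23142 of these matched RefSeq. In 1095 of 24530 probes the deposited tables disagreed by over 0.3 on the log2 scale, among them 472 of the items tested. Group means of all 16 arrays were fitted in limma 3.58.1 (R 4.3.3) with an intensity trend and 8 residual degrees of freedom. P-values were adjusted over all items (Benjamini-Hochberg), and an item was called at an adjusted p under 0.05. Where a group was not detected, an "at least" fold was computed against the lowest detected signal of each array.

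Genes named in the text are every called gene, the H1 genes, the members of each list with the largest differences, the largest Dox responses and genes named in an earlier account. Further list members were named beside the printed promoters or in the cilia and cell cycle lists after their values were seen. The comparison, the named genes and the lists were chosen with earlier results of these data known. Alternatives changed the arrays in the fit, the replicate block, background correction, normalization, source of values, offset, filter, probes per gene, variance model and threshold, or left out each array in turn.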

Additional observations from a re-analysis of the deposited data

Results flagged for a closer look

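The Dox effects of the sh120 and Ctrl lines differed by the test of the difference itself (limma, adjusted p under 0.05) for 41 genes. No group holds more than 2 arrays, so single arrays could not be screened for outlying values. All values are fitted log2 differences, sh120 minus Ctrl. For GCGR, FGL1, FAM149A, BRINP1, GALR2, DRC10, ODAD2, PRSS23, ANO1, AKR1C2 and PXN at least 1 group was undetected, so their sizes depend on the processing and give no order. Over the alternatives the fitted size fell as low as 1.28 for GCGR, 0.91 for FGL1, 0.70 for BRINP1, 0.65 for FAM149A, 0.59 for GALR2, 0.47 for DRC10 and 0.39 for ODAD2.

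The higher differences of at least 1.2 were those of GCGR at 3.14, FGL1 at 2.50, FAM149A at 1.96, BRINP1 at 1.55, CDC20B at 1.53, GALR2 at 1.46, WTAP at 1.38, DRC10 at 1.35, FOXN4 at 1.29, ODAD2 at 1.24 and HOATZ at 1.20. Differences between 1.0 and 1.2 were found for PRSS23 at 1.19, ROPN1L at 1.18, DNAI7 at 1.18, SAXO4 at 1.16, PSIP1 at 1.15, CAPSL at 1.12, SNX16 at 1.11, ANO1 at 1.10, E2F7 at 1.04 and ZC2HC1C at 1.02. The smaller ones were those of ODAD4 at 0.94, ELL at 0.93, CLIC6 at 0.93, ARHGEF3 at 0.92, UBQLN2 at 0.92, REPS2 at 0.91, AKR1C2 at 0.87, MSANTD4 at 0.86, CEP70 at 0.79, SWAP70 at 0.77, BTG1 at 0.73, PTK2 at 0.66 and GNPDA1 at 0.65.

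On the lower side the differences were UBE2C at -0.78, EPN2 at -0.95, TACC3 at -0.96, TROAP at -0.99, RBSN at -1.07, PLCXD1 at -1.17 and PXN at -1.45.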

How the results depend on the processing

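The 41 calls of the difference became 25 with a replicate block on the 8 arrays, 20 with median scaling, 24 without a filter, 65 with the series matrix, 70 with its rows aligned (chosen after seeing the data) and 129 at an adjusted p under 0.1. Leaving out each array in turn gave 4 to 26. The replicate block on all 16 arrays gave 32. Same-numbered arrays deviated with r = -0.23 to 0.28 over 6 pairs, 2 of them above 0.1. Such values cannot settle whether a number marks a shared culture or day, and the labels do not say. The totals under the other alternatives stayed within 1.5 times, but with the 8 arrays alone in the fit the lower genes numbered 14 against 7, and with these normalized alone 15. Dox in the sh120 line gave 1059 calls at a log2 value of at least 0.5 and 654 to 1651 with an array left out. Dox in the Ctrl line gave 475 at an adjusted p under 0.1 and 133 to 314 with an array left out, and sh120_Dox against Ctrl_Dox gave 1719 and 193 to 1062. The 2 calls between the untreated lines became 0 with 8 arrays in the fit, 0 with 8 arrays normalized together, 0 without a filter, 0 with probes detected on all 8 arrays, 4 under each replicate block and 0 to 66 with an array left out. REPS2 reversed to -0.039 with the series matrix, where its probe rows disagree with the scanner table. For the 41 genes, 1013 of 1014 alternative values kept their direction and 643 also their side of the threshold. Part of this was fixed in advance. The changed thresholds reuse the main fit, and each of the 41 differences is at least 0.647 in size, so neither threshold could lose a call. A fit of the 8 arrays alone, a replicate block, no intensity trend and array weights leave the fitted differences unchanged. There the direction could not change. The causes of the changes in calls were not tested. With an array left out, the lone array of its group is assumed to vary like the other groups. Most of the 41 genes lost their call in some omissions, also where the text does not say so.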
